A study of Mus musculus with 8 samples.

Results

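Meg3, Rian and Mirg are 3 noncoding RNAs transcribed in the same direction from an imprinted locus on mouse chromosome 12, and their SRSF3-GFP contacts were described here from iCLIP of neonatal cardiomyocytes. Each RNA was taken as all positions on the plus strand within a fixed mm9 interval. The Meg3 interval ran from 110779001 to 110810000 (31 kb), the Rian interval from 110842001 to 110900000 (58 kb) and the Mirg interval from 110973001 to 110988000 (15 kb). These lengths are close to those of the RefSeq genes on GRCm38, 30734, 57772 and 14478 nt. GENCODE M21 has a longer Mirg, 19697 nt, so the Mirg interval may not hold all of it. Of the 769652 positions listed for replicate 1 they contained 176, and of the 2093525 listed for replicate 2 they contained 516.

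The series held 8 mouse samples. Neonatal cardiomyocytes of C57BL/6 pups were transfected with 15 µg of modified mRNA for SRSF3 fused to green fluorescent protein, and 48 h later were irradiated with UV light for iCLIP (2 replicates). The protein was thus an added, tagged SRSF3 in cells with their own SRSF3. The other samples, adult C57BL/6 hearts of SRSF3flox/flox;alphaMHC-CreERT2 mice (3) and of alphaMHC-CreERT2 mice without the floxed alleles (3), all given 4-hydroxytamoxifen, were not analysed here. iCLIP joins a protein to RNA by UV light and maps each cDNA to the nucleotide where reverse transcription stopped, next to the crosslink. Values are numbers of cDNAs, or cDNAs per 1000000 cDNAs of the library (CPM), divided by the genomic length of the interval in kb and not by the length of the spliced RNA.

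At imprinted genes only the copy from a given parent is active. In this locus the noncoding RNAs are expressed from the maternal chromosome and the neighbouring protein genes from the paternal one. Meg3 is a spliced long noncoding RNA that is largely nuclear, Rian is the host transcript of many box C/D small nucleolar RNAs (snoRNAs), and Mirg is the host transcript of many microRNAs (miRNAs). SRSF3 is a small SR protein that acts in splicing and mRNA export and is also known for binding beside the hairpins of some primary miRNA transcripts.

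The small RNAs carried by the hosts are short. GENCODE M21 on GRCm38 lists 13 snoRNA genes of 71 to 75 nt and 4 miRNA genes on the plus strand of Rian, 14 miRNA genes of 66 to 90 nt in its longer Mirg (10 of them inside the RefSeq gene), and 2 miRNA genes in Meg3. Small RNA genes also lie on the plus strand between the 3 genes. There are 13 miRNA genes between Meg3 and Rian, and 26 miRNA and 10 snoRNA genes between Rian and Mirg. No coordinate of that build was joined to the mm9 tracks, so no cluster of cDNAs below is assigned to a named small RNA. The 4 sequences that follow show the kind of RNA for which compact clusters were sought in Mirg. They are mature miRNAs of the longer GENCODE Mirg, and some of the 4 may lie outside the Mirg interval. The sequences are from RefSeq (GRCm38.p6), 5′ to 3′, with the seed (bases 2 to 8) in capitals.
miR-453: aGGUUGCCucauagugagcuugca
miR-496a-5p: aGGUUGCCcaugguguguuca
miR-134-5p: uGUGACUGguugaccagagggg
miR-410-3p: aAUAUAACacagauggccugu
All 14 Mirg miRNA genes were matched by symbol to RefSeq, with 26 mature sequences of 20 to 25 nt. They had 25 different seeds, and the seed that miR-453 and miR-496a-5p share was the only one found more than once.

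The Rian snoRNAs are represented by 3 genes, DNA letters 5′ to 3′ from GENCODE M21, with the box C letters TGATGA and the box D letters CTGA in capitals.
AF357425: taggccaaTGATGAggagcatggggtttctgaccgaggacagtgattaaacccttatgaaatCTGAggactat
DQ267100: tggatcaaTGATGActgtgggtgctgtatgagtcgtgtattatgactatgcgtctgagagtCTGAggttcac
DQ267102: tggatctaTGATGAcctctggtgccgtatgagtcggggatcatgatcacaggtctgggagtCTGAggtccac
TGATGA within the first 20 bases together with CTGA within the last 20, searched on the RNA strand only and without overlap, was found in 7 of the 13 Rian snoRNA genes, 53.8%. The same letters were found in 300 of 1470 other snoRNA genes of the annotation, 20.4%, which include snoRNAs of other classes.

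Replicate 1 held 815414 cDNAs and replicate 2 held 2253688, so that a single region with 0 cDNAs could still hold up to 3.68 and 1.33 CPM. Separate cultures are not stated for the 2 replicates, so the spread between them may be technical, and intervals and p-values below cover counting error only. There was no control immunoprecipitation, and the tracks do not measure RNA abundance, so that a preference of SRSF3 and a high level of the RNA cannot be told apart. The labelled cell type was not checked against marker genes, since no annotation of mm9 was used here.

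SRSF3-GFP cDNAs were found along the locus almost only on the plus strand, and Meg3 was the most densely covered of the 3 RNAs. In replicate 1 Meg3 held 101 plus-strand cDNAs, Rian 53 and Mirg 24. In replicate 2 they held 288, 187 and 56. The densities of Meg3 were 4.00 and 4.12 CPM per kb, a mean of 4.06 ± 0.090 (SD, n = 2). Rian had 1.12 and 1.43 CPM per kb, a mean of 1.28 ± 0.22 (SD, n = 2). Mirg had 1.96 and 1.66 CPM per kb, a mean of 1.81 ± 0.22 (SD, n = 2). Both values of Meg3 lay above all values of Rian and Mirg, and both values of Mirg lay above those of Rian.

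The order of Meg3 over Rian was larger than the counting error in each replicate, while that of Mirg over Rian was so in replicate 1 and not in replicate 2. Meg3 was 3.57 times as dense as Rian in replicate 1 (exact 95% interval 2.53 to 5.07) and 2.88 times in replicate 2 (2.39 to 3.48). It was 2.04 times as dense as Mirg in replicate 1 (1.29 to 3.32) and 2.49 times in replicate 2 (1.86 to 3.38). Mirg, the miRNA host, had 1.75 times the density of Rian in replicate 1 (1.03 to 2.89) and 1.16 times in replicate 2 (0.843 to 1.57). The last interval includes equal densities, so these neighbours in the order were not told apart in the deeper library.

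The stretches between the named intervals were covered as well. Plus-strand cDNAs between Meg3 and Rian (110810001 to 110842000) numbered 59 and 181, with a density of 2.39 ± 0.18 CPM per kb (SD, n = 2). Those between Rian and Mirg (110900001 to 110973000) numbered 71 and 204, with 1.22 ± 0.033 CPM per kb. Rian was less dense than the stretch before it, at 0.496 times in replicate 1 (exact 95% interval 0.335 to 0.731) and 0.570 times in replicate 2 (0.462 to 0.703). Against the stretch after it, Rian had ratios of 0.940 (0.646 to 1.36) and 1.15 (0.941 to 1.41), which include equal densities. Of all plus-strand cDNAs from the start of Meg3 to the end of Mirg, the 3 named RNAs held 57.8% in replicate 1 and 58.0% in replicate 2.

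Coverage ended at both borders of the locus. The 30 kb before the Meg3 interval held 0 plus-strand cDNAs in replicate 1 and 1 in replicate 2, and the 30 kb after the Mirg interval held 1 and 5. For replicate 1, a count of 0 over 30 kb sets an upper limit of 0.123 CPM per kb. Across the 209 kb from Meg3 to Mirg the density was 1.81 and 1.94 CPM per kb, which was 10.7 and 11.5 times the mean of the plus strand of chromosome 12. Meg3, Rian and Mirg and the stretches between them thus lay in an island of signal in both libraries.

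The minus strand of the same intervals was nearly empty, which gives the level measured in the same way on the strand that does not carry the 3 RNAs. Meg3 had 0 minus-strand cDNAs in both replicates, for which the upper limits are 0.119 and 0.043 CPM per kb. Rian had 1 and 2, and Mirg had 1 and 0. Over the 209 kb, 98.7% of the cDNAs of replicate 1 (Wilson 95% interval 96.8% to 99.5%) and 99.6% of those of replicate 2 (98.9% to 99.8%) were on the plus strand.

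**Figure D1:**
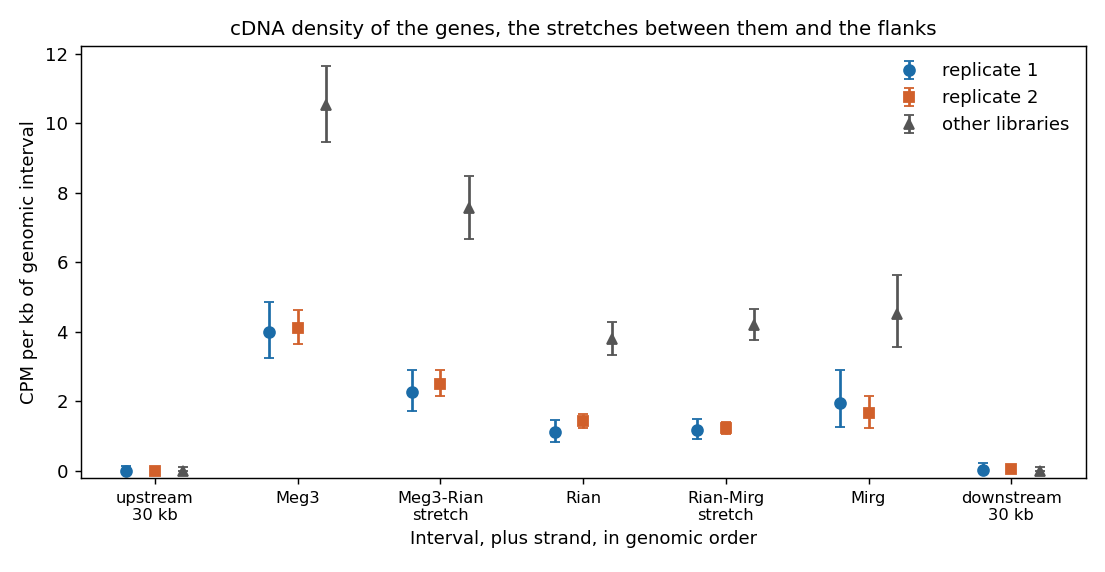
cDNA density in CPM per kb of genomic interval (y axis) for Meg3, Rian, Mirg, the stretches between them and 30 kb on each side (x axis, genomic order), with exact 95% Poisson intervals as bars, for replicate 1, replicate 2 and the other libraries of the merged track. Meg3 stands highest in every library, at 4.00, 4.12 and 10.5 CPM per kb, and both flanks lie near 0.

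Meg3 owed most of its signal to 4 kb near its upstream end. The 3 strongest 1 kb windows of Meg3 by the lower replicate were neighbours. The window from 110785001 held 15 and 46 cDNAs in replicates 1 and 2, that from 110786001 held 16 and 35, and that from 110787001 held 15 and 44. With the window before them, which was added after the values were seen, the stretch from 110784001 to 110788000 held 58 of the 101 Meg3 cDNAs of replicate 1, 57.4% (Wilson 95% interval 47.7% to 66.6%). In replicate 2 it held 164 of 288, 56.9% (51.2% to 62.5%). Its share of Meg3 was thus nearly equal in the 2 libraries.

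The densities of this stretch were 17.8 and 18.2 CPM per kb. The other 27 kb of Meg3 had 1.95 and 2.04 CPM per kb, so that the rest of Meg3 was 1.74 times as dense as Rian in replicate 1 (exact 95% interval 1.14 to 2.66) and 1.42 times in replicate 2 (1.13 to 1.80). Without the 4 kb the ratio of Meg3 to Mirg was 0.995 in replicate 1 (0.591 to 1.71) and 1.23 in replicate 2 (0.890 to 1.72). With this cut, placed after the values were seen, the rest of Meg3 was denser than Rian by more than the counting error. A difference from Mirg was not detectable. The 27 kb still held the windows beside the cut, from 110783001 with 3 and 14 cDNAs and from 110788001 with 6 and 10. Whether the difference from Rian holds without those windows was not tested. No exon or intron of Meg3 was assigned to the stretch, for lack of an mm9 annotation.

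**Figure D2:**
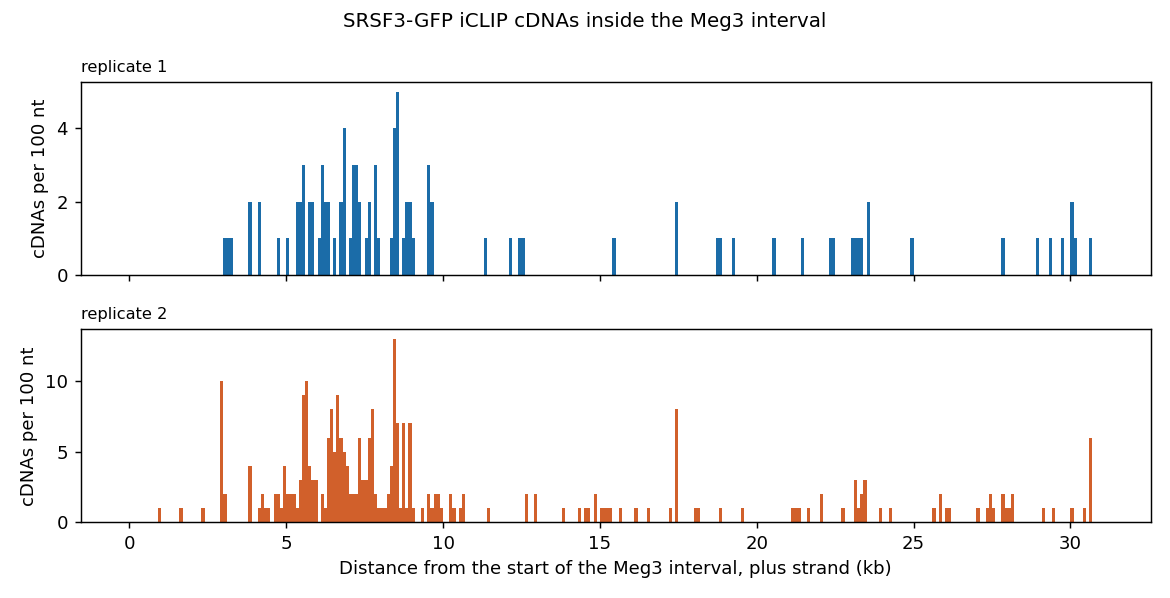
cDNAs per 100 nt (y axis) along the Meg3 interval, plus strand, by distance from its start in kb (x axis), with replicate 1 above and replicate 2 below on separate scales. In both replicates most cDNAs lie between 5 and 9 kb from the start, spread over many tiles, with the highest tile at 5 cDNAs in replicate 1 and 13 in replicate 2.

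The 3 strongest 1 kb windows held a larger share of the cDNAs in Meg3 than in Rian, and Mirg had too few cDNAs to tell. These windows were picked on the same values and from unlike numbers of windows, which the intervals do not cover. How evenly the signal was spread was thus not compared between the RNAs. The 3 strongest 1 kb windows of Meg3 made up 45.5% of its cDNAs in replicate 1 (Wilson 95% interval 36.2% to 55.2%) and 43.4% in replicate 2 (37.8% to 49.2%). The strongest 1 kb windows of Rian by the lower replicate, starting at 110872001, 110880001 and 110884001, held 4 cDNAs each in replicate 1 and 19, 7 and 6 in replicate 2. Together they made up 22.6% of Rian in replicate 1 (Wilson 95% interval 13.5% to 35.5%) and 17.1% in replicate 2 (12.4% to 23.2%). Those of Mirg, starting at 110979001, 110978001 and 110973001, held 3, 3 and 4 cDNAs in replicate 1 and 7, 6 and 5 in replicate 2. They made up 41.7% of Mirg in replicate 1 (24.5% to 61.2%) and 32.1% in replicate 2 (21.4% to 45.2%), of 15 windows against 31 in Meg3 and 58 in Rian. No 1 kb window of Mirg had more than 7 cDNAs in either replicate.

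Most 1 kb windows of all 3 RNAs held few cDNAs, and each RNA had empty ones in replicate 1. The median window held 1 cDNA in each RNA in replicate 1, and 4, 3 and 4 in Meg3, Rian and Mirg in replicate 2. Of the 31 windows of Meg3, 22 had a cDNA in replicate 1 and 30 in replicate 2. Of the 58 windows of Rian, 34 had a cDNA in replicate 1 and 47 in replicate 2. All 15 windows of Mirg had a cDNA in replicate 2, and 11 had a cDNA in replicate 1. Among the 237938 windows of 10 kb with signal, ranked by the lower replicate, the first window of Meg3, starting at 110780001, stood at 582, in the top 0.245%. The best window of Rian, starting at 110880001, stood at 7034, in the top 2.96%, and its last, starting at 110890001 with 1 and 14 cDNAs, at 65749, in the top 27.6%. The best of Mirg, starting at 110970001 and so partly before the interval, stood at 6785, in the top 2.85%.

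**Figure D3:**
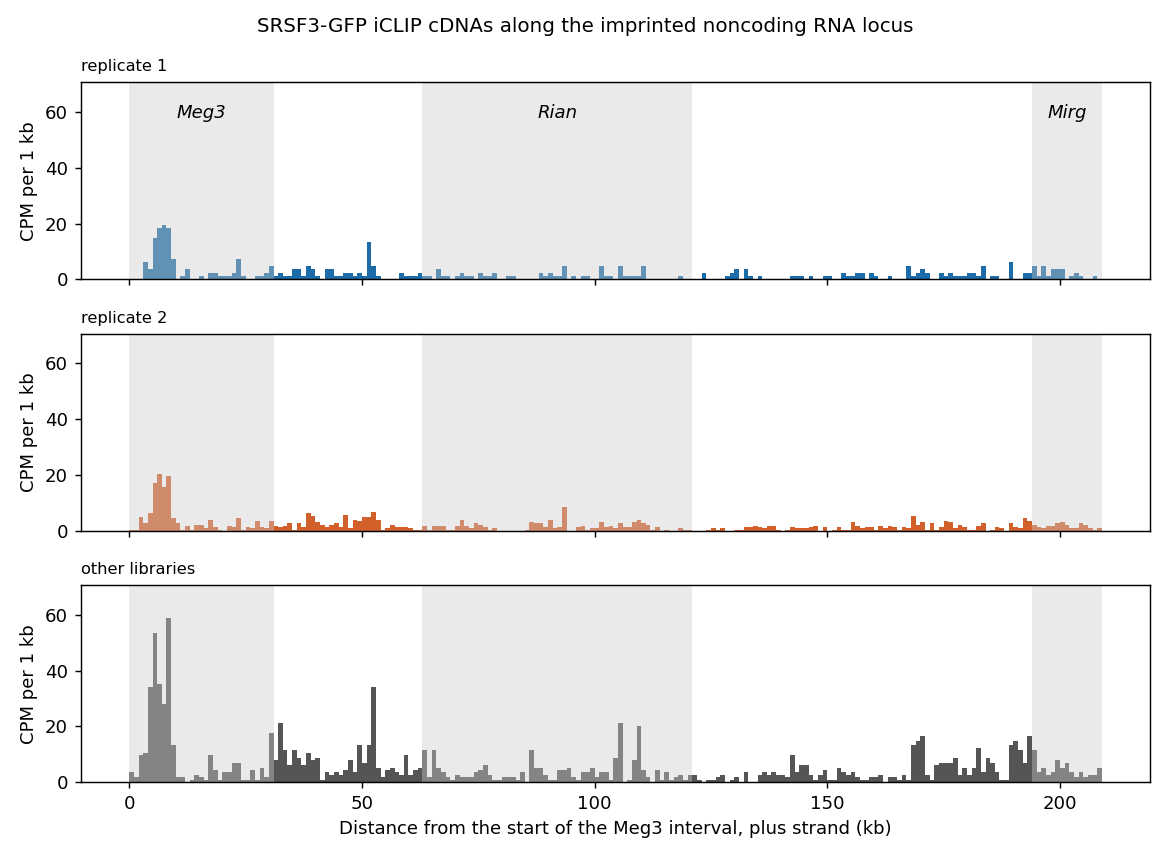
CPM per 1 kb window (y axis) along 209 kb of the plus strand from the start of the Meg3 interval (x axis, kb), for replicate 1, replicate 2 and the other libraries of the merged track on 1 scale, with the named intervals shaded. Signal runs through the shaded and unshaded parts alike, and the highest windows lie in Meg3 in all 3 panels, at 16 cDNAs in replicate 1, 46 in replicate 2 and 67 in the other libraries.

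No compact site was found at Meg3, Rian or Mirg in either replicate. A compact site was a run of positions with gaps of up to 10 nt, at most 200 nt wide, with at least 10 cDNAs and at least 5 times the density of the 500 nt on each side, called in replicate 2. Over the whole genome replicate 2 had 3094 runs with at least 10 cDNAs, of which 1190 were compact (38.5%). None of these runs lay in the 3 intervals or between them, and replicate 1 had none there either. A run of 10 cDNAs corresponds to 12.3 CPM in replicate 1 and 4.44 CPM in replicate 2, so a weaker site was not detectable at these depths. A stronger site could also be missed, since cDNAs more than 10 nt apart were split into separate runs. In Meg3, 100 nt of replicate 2 held 16 cDNAs, while the largest run held 8. In Meg3 the count depended on the settings. It was 2 sites when both replicates were pooled, 2 with gaps of up to 20 nt and 9 at a minimum of 5 cDNAs. Rian and Mirg had 0 in each of these. They had no run of 5 cDNAs in replicate 2, so their 0 at that minimum was fixed by their sparse coverage. The share over the genome at these settings was not computed, so the Meg3 counts have no background beside them.

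The largest runs of replicate 2 were small, and replicate 1 seldom had cDNAs in them. These runs were chosen on replicate 2, which was 2.76 times as deep as replicate 1. A count of 0 in replicate 1 for any of these runs, which held 8 cDNAs or fewer, thus says little about recurrence. In Meg3 the largest run held 8 cDNAs over 29 nt, from 110785649 to 110785677. It lay inside the dense 4 kb, with 41 cDNAs in the 1000 nt around it, and replicate 1 had 0 cDNAs in it. A run of 7 cDNAs from 110781948 to 110781963 stood before the dense part with 5 cDNAs around it, and replicate 1 again had 0. In Rian the largest run held 3 cDNAs, from 110876073 to 110876086, and in Mirg 2 cDNAs, from 110977100 to 110977110, with 0 cDNAs of replicate 1 in either.

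At the scale of the small RNAs, most signal in both hosts was in single cDNAs. In Rian 93.1% of the runs of replicate 2 were single cDNAs, in Mirg 92.3%, and in Meg3 71.3%. Counted by cDNAs, such runs held 161 of 187 in Rian, 48 of 56 in Mirg and 127 of 288 in Meg3. The share over the genome was not computed. The most cDNAs found in any 100 nt were 16 in Meg3, 7 in Rian and 4 in Mirg in replicate 2, and 8, 3 and 3 in replicate 1. In Rian these 100 nt lay at nearly the same place, from 110872345 in replicate 2 and from 110872351 in replicate 1, and the merged track had 12 cDNAs there. In Mirg they lay apart, from 110980391 and from 110973265. The fragments were cut to 80 to 200 nt, while the snoRNAs of Rian are 71 to 75 nt long and the mature miRNAs of Mirg 20 to 25 nt. The part of fragment length in the lack of compact sites was not tested.

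Single positions of Meg3 and Rian recurred between the replicates about as often as in the whole genome. Of 99 Meg3 positions of replicate 1, 5 were also listed in replicate 2, 5.05% of replicate 1 (Wilson 95% interval 2.18% to 11.3%) and 1.81% of replicate 2. Of 53 Rian positions 3 were, 5.66% of replicate 1 (1.94% to 15.4%) and 1.64% of replicate 2. The shares over the genome were 5.02% and 1.85%. Of the 24 Mirg positions of replicate 1 none recurred, which allows a share of up to 12.5%.

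Within 10 nt, 47 of the Meg3 positions of replicate 1 (47.5%) had a replicate 2 position, against 14 of Rian (26.4%) and 5 of Mirg (20.8%). The share was 20.3% in the stretch between Meg3 and Rian and 7.46% in that between Rian and Mirg. It was not computed over the genome, so whether any of these shares is unusual was not tested. Meg3 was the most densely covered by replicate 2, with 8.94 positions per kb, against 3.16 in Rian and 3.73 in Mirg. The stretches had 5.47 between Meg3 and Rian and 2.70 between Rian and Mirg. The highest count at a single position was 2 cDNAs in Meg3 in both replicates, and every Mirg position held a single cDNA in both.

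No difference between the replicates was detectable at the 3 RNAs. The log2 ratio of replicate 1 to replicate 2 was -0.05 in Meg3 (95% interval -0.39 to 0.29, p = 0.819, exact binomial test, two-sided, with the expected share from the depths of the libraries). It was -0.35 in Rian (-0.82 to 0.09, p = 0.125, exact binomial test) and 0.24 in Mirg (-0.51 to 0.96, p = 0.527, exact binomial test). The intervals leave room for differences of up to nearly 1 on the log2 scale in Rian and Mirg. In the 3 RNAs 4 windows of 10 kb had the 50 cDNAs needed for a test. By the exact binomial test 0 of them passed after Benjamini-Hochberg adjustment over the genome (5% threshold) and 0 had an unadjusted p under 0.05. Over the genome 0.0934% of 13920 windows passed and 5.57% had such a p.

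The merged track deposited by the authors showed a higher share of cDNAs on all 3 RNAs. This track sums 5 libraries, the 2 replicates and 3 others, whose cDNAs were taken as the excess of the merged values over the replicates, 1138453 in all. The labels do not describe these libraries. They held 371 cDNAs of Meg3, 250 of Rian and 77 of Mirg, or 326, 220 and 67.6 CPM. Both replicates together had 127, 78.2 and 26.1 CPM.

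The excess was of similar size at each RNA. The ratio of the other libraries to both replicates was 2.57 in Meg3 (exact 95% interval 2.22 to 2.97), 2.81 in Rian (2.34 to 3.37) and 2.59 in Mirg (1.87 to 3.59). It was 3.09 (2.59 to 3.69) between Meg3 and Rian and 3.41 (2.90 to 4.01) between Rian and Mirg. Over all tested windows of the genome the median ratio was 0.922 and the 95th percentile 2.70. All 10 windows of 10 kb in the 3 RNAs that could be tested were higher in the other libraries (exact binomial test, Benjamini-Hochberg adjusted p from 4.86e-28 to 0.042). They were 3 of Meg3, 5 of Rian and 2 of Mirg. Of 21841 windows over the genome 14.5% were higher by the same rule and 27.9% differed in either direction.

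The relative levels of the RNAs were close in both sets of libraries. In the other libraries Meg3 was 2.78 times as dense as Rian (exact 95% interval 2.36 to 3.27) and 2.33 times as dense as Mirg (1.82 to 3.02). Mirg was 1.19 times as dense as Rian (0.910 to 1.54). The merged track, which also holds the replicates, gave 1.24 for Mirg to Rian (1.03 to 1.49). The dense 4 kb of Meg3 held 200 of 371 Meg3 cDNAs in the other libraries, 53.9% (Wilson 95% interval 48.8% to 58.9%). All 698 cDNAs of the other libraries in the 3 intervals were on the plus strand, and the 30 kb on either side held 0 plus-strand cDNAs.

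**Figure D4:**
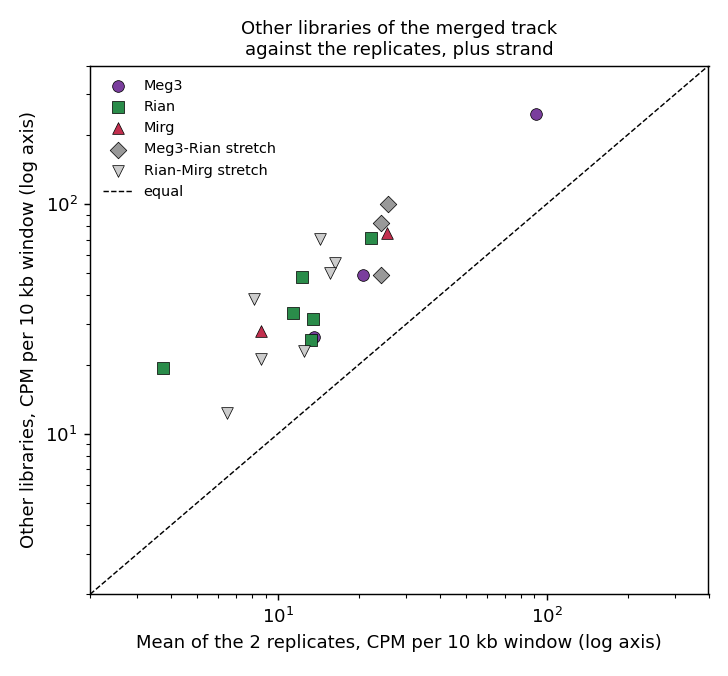
CPM per 10 kb window of the plus strand in the other libraries of the merged track (y axis, log) against the mean of the 2 replicates (x axis, log), with a point for each window of Meg3, Rian, Mirg and the stretches between them, and a dashed line for equal values. Every point lies above the line, and among tested windows the ratio to both replicates together ran from 1.86 to 4.12 in the 3 RNAs.

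Compact runs appeared in the merged track mainly in Meg3. It had 14 runs with at least 10 cDNAs in Meg3, 6 of them compact, 1 in Rian, which was compact, and 0 in Mirg. Over the genome 40.6% of such runs were compact, so the share in Meg3 was near the background. Of the 6 compact runs of Meg3, 3 lay outside the dense part. That from 110781946 to 110781975 held 0, 8 and 7 cDNAs in replicate 1, replicate 2 and the other libraries, that from 110783129 to 110783168 held 2, 1 and 10, and that from 110796444 to 110796467 held 2, 6 and 5. The strongest, from 110787427 to 110787474, held 4, 9 and 22. The site in Rian, from 110884748 to 110884775, held 1, 0 and 10, and so rested on the other libraries.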

How the data were processed

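iCLIP tracks of 2 replicates and a merged track were used. The authors deposited a signed score for each nucleotide, with the cDNA number as its size and the strand as its sign, and without scaling for depth. The genome (mm9) and the annotation (Ensembl 59) are stated per the file headers, and Bowtie 0.10.1 is named per the submitters' processing notes. How duplicates and reads with several matches were treated is not given in the sources. The headers of the replicates name a single library identifier and no batch.

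Sums over intervals, windows and runs were computed with Python 3.11.15, numpy 2.4.6 and scipy 1.17.1, and drawn with matplotlib 3.10.9. Coordinates are 1-based mm9. Windows of 10 kb belong to the interval that holds their midpoint. Windows over the whole genome with at least 50 cDNAs were tested with two-sided exact binomial tests and Benjamini-Hochberg adjustment. Ratios have exact conditional 95% intervals, levels exact Poisson intervals and shares Wilson intervals, and the limit of a 0 is 3 cDNAs. Named were the 3 windows of 1 kb per RNA highest in the lower replicate and, for lack of compact sites, the largest runs, chosen after their values were seen. Members and lists were chosen with earlier results of these data known, and the comparison with the other libraries was added after the tracks were seen. Tests and site calls were tried on simulated data first. The reference, GENCODE M21 and RefSeq on GRCm38, gave names, lengths and sequences only.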

Additional observations from a re-analysis of the deposited data

How the results depend on the processing

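No paired analysis was possible because the tracks come from a single group. Without either replicate the density of Meg3 ranged from 4.00 to 4.12 CPM per kb, that of Rian from 1.12 to 1.43 and that of Mirg from 1.66 to 1.96. The ratio of the other libraries to the replicates then ranged from 2.55 to 2.63 in Meg3, 2.65 to 3.38 in Rian and 2.30 to 2.72 in Mirg. Counting each position once gave Meg3 4.21 positions per 1000000 positions and kb. In the merged track the densities of Meg3, Rian and Mirg were 5.83, 2.01 and 2.49 CPM per kb, and in its other libraries alone 10.5, 3.79 and 4.51. Without the densest 4 kb, an alternative chosen after seeing the data like all those on the other libraries, Meg3 had 1.995 CPM per kb, its ratio to Rian was 1.74 in replicate 1 and 1.42 in replicate 2, and its ratio to Mirg was 0.995 and 1.23. Windows that differed between the replicates over the genome numbered 20 at 1 kb, against 13 at 10 kb. In Meg3, compact sites numbered 2 with both replicates pooled, 6 in the merged track, 9 with at least 5 cDNAs and 2 with gaps of up to 20 nt, against 0. In Rian the merged track gave 1, against 0. None of the 3 RNAs had a run of 10 cDNAs in replicate 2. The alternatives for the fold over the flanks, the width, narrower gaps and more cDNAs could thus only return 0 in each. In Mirg the looser ones (5 cDNAs, gaps of up to 20 nt, other tracks) also gave 0. No run of Mirg or Rian reached 5 cDNAs in replicate 2, so that setting could only return 0 there. Of all other alternatives none moved a value beyond its spread or interval or changed a call. Leaving out a replicate could not move a density by this rule, since each of 2 values lies within the SD of their mean. Alternatives without compact sites were not run, since replicate 2 had none. Depth limits Mirg most, with 24 cDNAs in replicate 1.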
